A study of Xenopus laevis with 8 samples.

Results

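The genes described here are those that moved the same way on the injected side of Xenopus laevis neurulae whichever morpholino had been injected. For each kind of morphant and each replicate number, the log2 value of the uninjected side was subtracted from that of the injected side, which gave 4 matched differences, and a gene was a member when all 4 had the same sign. Of 8219 genes tested, 3554 were members (43.2%), of which 2082 were higher and 1472 were lower in injected sides. A log2 difference of 1 is a 2-fold change.

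The series holds 8 Affymetrix arrays of embryos at the neural plate stage, when the future brain and spinal cord are a flat sheet on the back of the embryo. Double morphants received translation-blocking morpholinos against xSuv4-20h1 together with xSuv4-20h2, which both place di- and trimethyl marks on lysine 20 of histone H4. Control morphants received an unrelated standard morpholino. All embryos were injected on a single side together with a fluorescent dextran as a tracer, and were cut along the midline so that injected and uninjected sides were collected apart. The 4 groups were thus the injected sides and the uninjected sides of each kind of morphant, with 2 arrays each from 2 independent experiments, numbered as replicates. Each array holds RNA of pooled embryos, and both sides of a pair came from the same embryos. The sample labels give 40 ng of morpholino in neighbouring blastomeres, whereas the supplementary methods describe a higher dose in a single blastomere, and neither source says whether the left or the right side was injected. Every injected array carries morpholino, tracer and needle together, so the parts of these in a shared difference cannot be told apart.

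Needle injection pierces the membrane of an early blastomere and loads it with foreign nucleic acid and tracer. Morpholinos are uncharged antisense oligomers, and in zebrafish they are known to turn on the transcription factor p53 and its targets even where no gene is depleted. A neurula changes its transcripts quickly: genes of the pluripotent blastula are switched off while regional genes of brain, crest, epidermis and muscle are switched on. In pooled tissue, fewer cells of a type and less RNA per cell cannot be told apart.

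The arrays were alike in level. The median log2 value over all probe sets lay between 5.09 and 5.19, and 31.7% of values were under 2.5, close to the lowest value in the table (2.14). The median difference over the tested genes was 0.03 and 0.04 in double morphants and 0.03 and 0.05 in control morphants. The deposited values were already normalized between arrays, so alike medians cannot show whether a side was shifted as a whole. Markers of neurula tissues were well above the bottom of the scale in uninjected sides, with 7.77 to 8.06 for the eye field gene rax.L and 13.47 to 14.05 for the skin lectin gene itln1.L. The spread of the differences was not alike. Their SD was 0.593 and 0.814 in double morphants and 0.370 and 0.588 in control morphants.

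The same-sign rule alone took 25.3% of tested genes on the higher side and 17.9% on the lower side, and nothing is read from these shares because the rule fixed them. Among the other genes, 1560 were positive in 3 of 4 differences, 1724 in 2 and 1378 in 1. In 1183 genes both double morphant pairs went one way and both control pairs the other. Most members had small differences. The mean of the 4 exceeded 0.5 in 716 higher and 691 lower members and exceeded 1 in 90 higher and 232 lower members. Beyond 2, 3 members were higher (lhx5.S, ccng1.S and tdgf1.3.L), while 43 were lower.

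The common effect was tested with limma, with the matched pair as a block. At a Benjamini-Hochberg adjusted p under 0.1 over all 8219 genes and the same sign in all pairs, 810 genes rose (9.86% of those tested) and 664 fell (8.08%), and these are the genes called changed below. The lowest adjusted p was 0.0318, and at the threshold tnni2.S was just inside (0.0999) and pou5f3.2.L just outside (0.102). Such low counts of pairs give the block fit 3 residual degrees of freedom, and an exact permutation test of a single gene over 4 pairs cannot go below a two-sided p of 0.125. The number of calls depended on the choice of block and on which pairs were kept. Fits without a pair also have fewer degrees of freedom, and the part of this was not tested. Without the block limma called 45 higher and 49 lower genes, and 81 of these were among the calls above. With the experiment number as the block it called 1337 higher and 1015 lower genes, and 1409 of these were among the calls above. Without double morphant replicate 1 no gene was called (at an unadjusted p under 0.05 there were 855 upwards and 815 downwards), without double morphant replicate 2 the counts were 14 and 19, without control replicate 2 they were 2 and 13, and without control replicate 1 they were 623 and 501. The side alone separated fewer genes. All 4 injected arrays lay above all 4 uninjected arrays for 460 genes (5.6%) and below them for 317 genes (3.86%).

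Called genes usually moved further in double morphants than in control morphants. The median effect of the 810 called higher genes was 0.72 in double morphants and 0.42 in control morphants, and that of the 664 called lower genes was -0.84 in double morphants and -0.54 in control morphants. The double morphant effect was the larger in size for 684 of the higher and 497 of the lower genes. This was not particular to called genes. Over all tested genes the median absolute difference was 0.32 and 0.43 in double morphants and 0.19 and 0.22 in control morphants. The test of the difference between the kinds called no gene at an adjusted p under 0.1 in limma, with the block (lowest adjusted p 0.118, 1906 genes at an unadjusted p under 0.05) or without it (lowest adjusted p 0.574). Across the tested genes the differences of pairs with the same replicate number but different morpholinos correlated at r = 0.443 (replicate 1) and 0.651 (replicate 2), as a description over genes that share an experiment. Pairs with the same morpholino but different replicate numbers gave 0.703 in double morphants and 0.499 in control morphants. Pairs with neither morpholino nor replicate number in common gave 0.332 and 0.378.

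**Figure D1:**
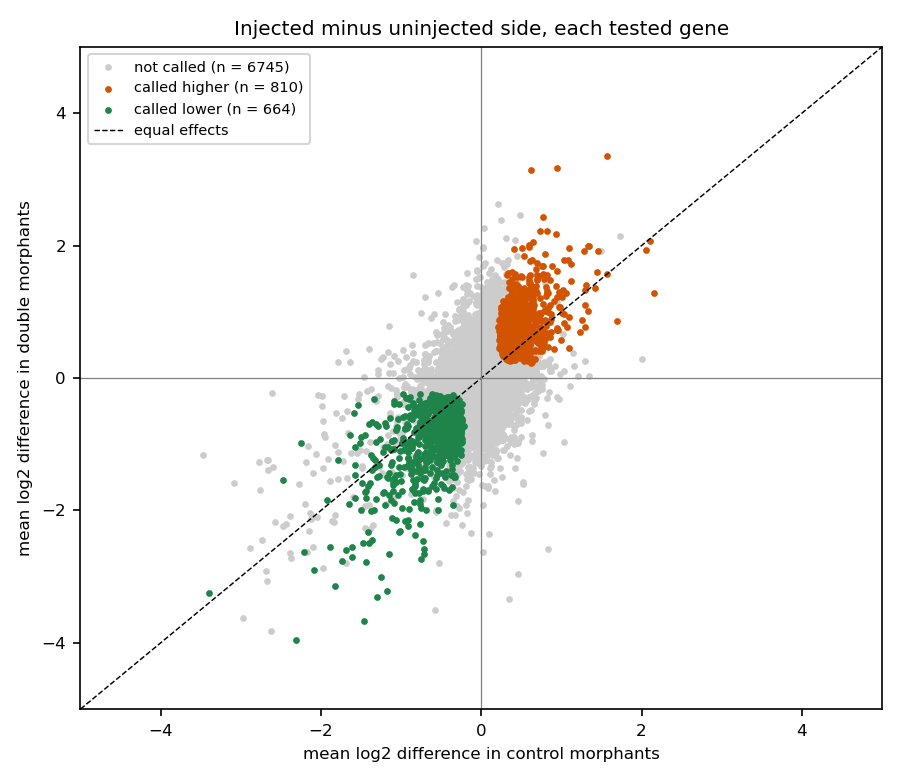
Mean log2 difference of injected minus uninjected sides in double morphants and in control morphants, 1 point per tested gene, with called genes coloured by direction. By the calling rule, called genes can lie only in the quadrants where both kinds share a sign. Most called genes lie further from 0 on the double morphant axis (684 of 810 higher and 497 of 664 lower). Absolute differences over all tested genes were larger in double morphants as well.

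Among called genes, the 12 with the largest mean increase and the 12 with the largest mean decrease were named by rule. The increases were led by lhx5.S, a LIM homeobox gene of the forebrain, with a mean difference of 2.46 ± 0.39 (SE, limma adjusted p = 0.0483). This frog is allotetraploid, and the suffixes .L and .S tell a gene copy on a longer chromosome from its partner on a shorter one. lhx5.S measured 6.78 and 7.21 in injected and 3.50 and 3.79 in uninjected sides of double morphants, and 4.64 and 6.51 in injected and 3.07 and 4.93 in uninjected sides of control morphants. The control pairs moved less, and the lower injected control array fell below the higher uninjected one, so the sides overlapped. The other increases included bmp7.2.L, which encodes a bone morphogenetic protein (1.69 ± 0.18, adjusted p = 0.0404), c9.L, a component of the terminal complement complex (1.72 ± 0.33, adjusted p = 0.0576), and hmgb2.S, a chromatin protein of the high mobility group (1.67 ± 0.21, adjusted p = 0.046).

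bmp7.2.L measured 10.38 and 10.32 in injected and 8.78 and 8.07 in uninjected sides of double morphants, and 10.42 and 11.70 in injected and 9.20 and 9.997 in uninjected sides of control morphants. Every injected array was above every uninjected one. hmgb2.S also separated the sides, but a brighter probe set of the same gene gave a mean difference of 0.09. For timm23.L, a subunit of the mitochondrial import channel, the chosen probe set gave 1.67 ± 0.23 (adjusted p = 0.048) and the brightest gave -0.15, so its direction depended on the probe set. Such differences between probe sets were frequent. Among the called genes that were named or on a list, 46 had further probe sets averaging at least 4. All of these shared the gene's sign in every pair for 26 genes and not for the other 20, and for 6 of the 20 a further probe set had a mean of the opposite sign. The remaining named increases were rilp.S (1.88), XB22166267.L (1.60), nt5c3a.L (1.57) and genes described with their groups below.

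**Figure D2:**
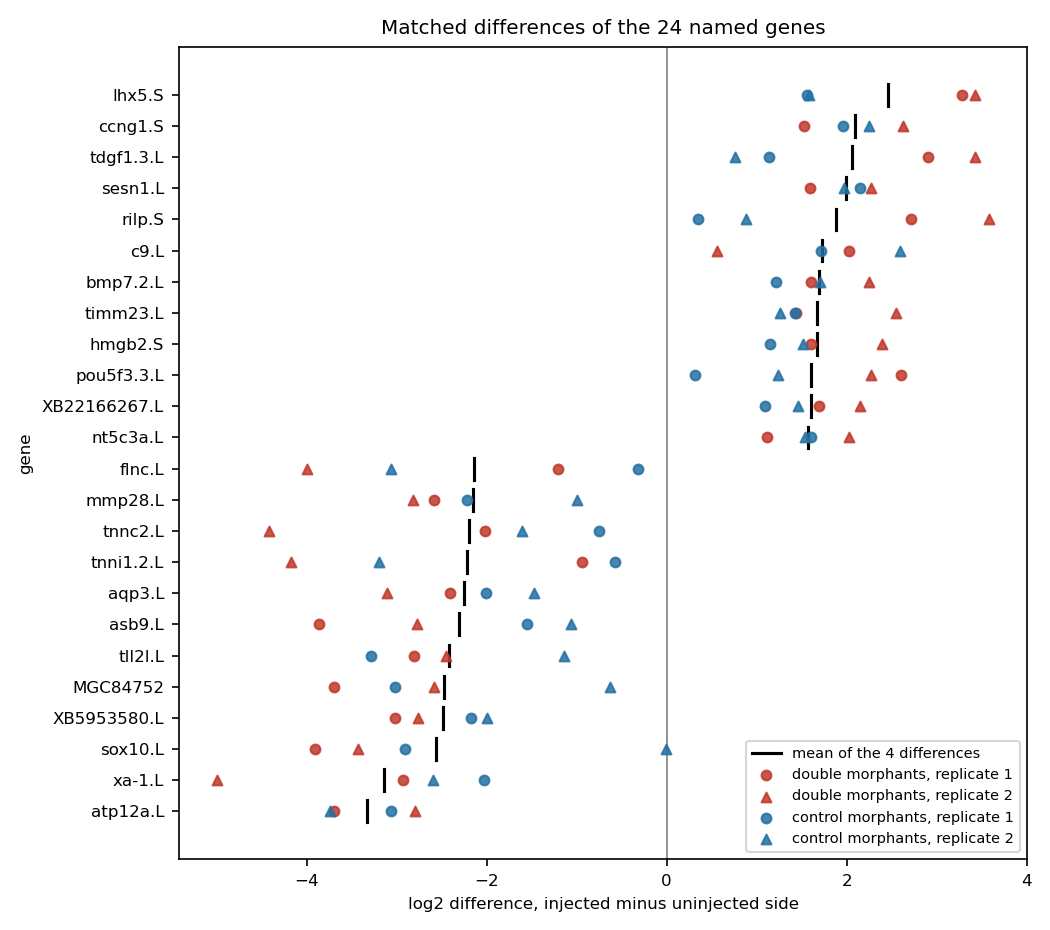
The 4 matched log2 differences, injected minus uninjected, of the 24 named genes, with double morphant and control morphant pairs marked apart. atp12a.L (-3.70 and -2.80 in double morphants, -3.06 and -3.75 in control morphants) and sesn1.L (1.60 and 2.27, then 2.14 and 1.98) stay within a narrow range, while tnni1.2.L spreads from -4.17 to -0.57.

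The gene lists used from here on were chosen with earlier results of these data known, so their shares are descriptive and do not test enrichment. Some genes stand on several lists, among them rasd1 and mixer.L, so the counts of different lists are not separate from each other. In the list of p53 targets, DNA damage and apoptosis some genes rose, but most did not. Of its 40 tested genes, 11 rose (27.5%), 3 fell (7.5%) and 26 were not called, against 9.86% higher and 8.08% lower over all tested genes. The list is mixed, so p53 targets were not counted alone, and .L and .S copies of a gene count apart. The list's median difference was 0.16, against 0.03 over all tested genes, and its pair medians were 0.13 and 0.08 in double morphants and 0.17 and 0.16 in control morphants. sesn1.L, a p53-induced stress gene that restrains growth signalling, measured 7.88 and 7.26 in injected and 6.28 and 4.99 in uninjected sides of double morphants. In control morphants it measured 7.40 and 7.09 in injected and 5.26 and 5.11 in uninjected sides. All injected arrays were above all uninjected ones, and the mean difference was 2.00 ± 0.14 (limma adjusted p = 0.033). A further sesn1.L probe set of similar level gave a smaller mean of 0.51, with differences of 1.27 and 0.66 in double morphants and 0.29 and -0.17 in control morphants, so its sign was not shared by all pairs.

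ccng1.S, which encodes cyclin G1, a classical p53 target, measured 7.54 and 7.19 in injected and 6.02 and 4.57 in uninjected sides of double morphants, and 7.43 and 6.93 in injected and 5.47 and 4.68 in uninjected sides of control morphants. The sides did not overlap, and the mean difference was 2.09 ± 0.19 (adjusted p = 0.0403). Its long-chromosome copy rose as well, with 13.04 and 12.97 in injected and 11.99 and 11.36 in uninjected sides of double morphants, against 12.41 and 12.60 in injected and 11.20 and 11.22 in uninjected sides of control morphants. That increase was 1.32 (adjusted p = 0.0403), again with no overlap. Further increases were seen for tp53inp1.S, a p53-induced autophagy and cell death gene (1.21), polk.L, a translesion DNA polymerase (1.06), sesn2.L and sesn2.S (0.95 and 0.49), the nuclease gene aen.L (0.78), gadd45a.S (0.72, and 0.19 to 0.27 in its other probe sets) and sesn3.L (0.68). sp5.L (0.77), also on the list, encodes a Wnt-responsive factor better known outside the p53 pathway.

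mdm4.S, an inhibitor of p53, fell. It measured 6.51 and 5.96 in injected and 7.41 and 7.61 in uninjected sides of double morphants, and 6.45 and 6.48 in injected and 7.21 and 7.08 in uninjected sides of control morphants. The injected arrays were all the lower ones, and the mean difference was -0.97 (adjusted p = 0.0597). rrm2b.S (-0.70), a p53-induced ribonucleotide reductase subunit, and the checkpoint kinase gene chek1.S (-0.63) also fell. A further chek1.S probe set gave -0.39, with 0.03 in control replicate 2. Without the block 3 genes of the list were called higher and 1 lower, against 45 and 49 of all 8219 tested genes.

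**Figure D3:**
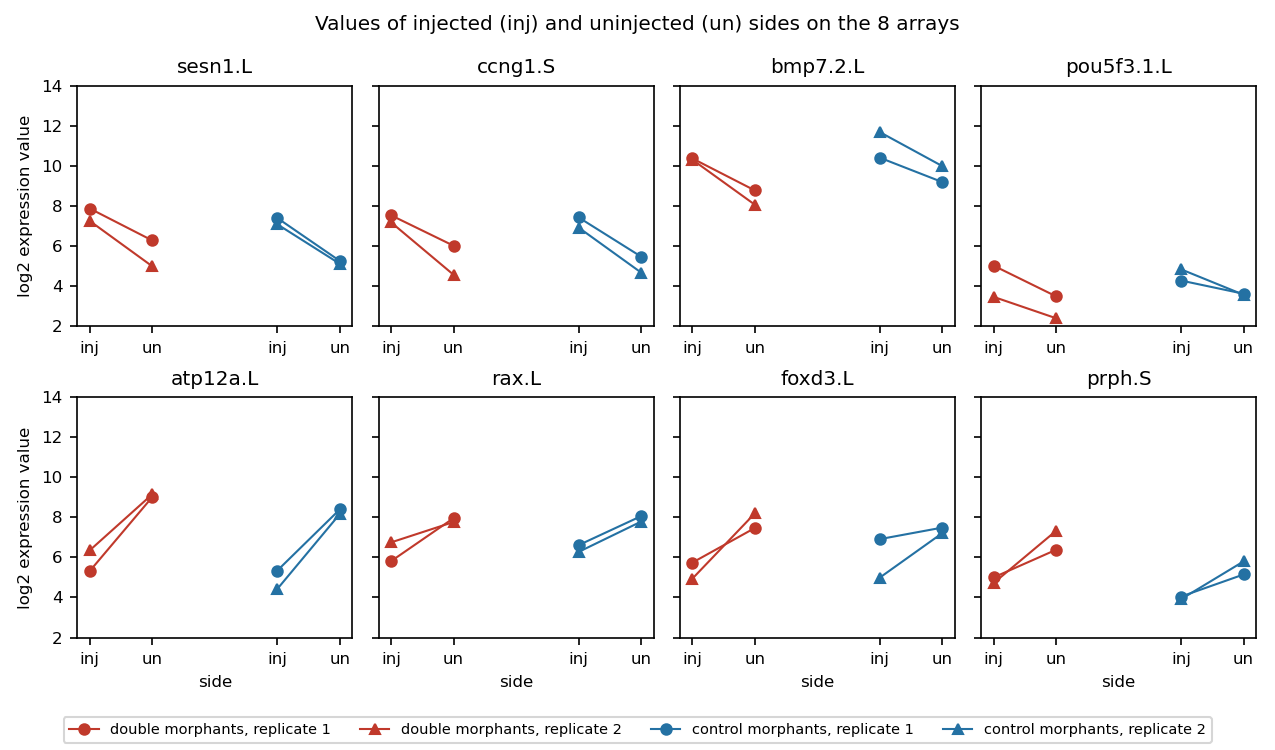
Log2 values of chosen genes on the 8 arrays, with double morphants left of control morphants in each panel, the injected side left of the uninjected side, and lines joining matched pairs. Each line of sesn1.L and ccng1.S goes down, and each line of atp12a.L goes up, on passing to the uninjected side.

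Of 48 tested genes of the early embryo whose transcripts normally fade by the neurula stage, 12 rose (25%), 1 fell and 35 were not called. Of all tested genes 9.86% rose and 8.08% fell. Of the 48 genes, 3 were called higher without the block, against 45 of all 8219 tested genes. The list's median was 0.38, with pair medians of 0.42 and 0.72 in double morphants and 0.16 and 0.39 in control morphants. tdgf1.3.L, a Nodal co-receptor of the EGF-CFC family, measured 8.79 and 9.70 in injected and 5.88 and 6.27 in uninjected sides of double morphants, and 6.73 and 8.30 in injected and 5.60 and 7.54 in uninjected sides of control morphants. The double morphant pairs moved most and the sides overlapped only through the control arrays. The mean difference was 2.06 ± 0.49 (adjusted p = 0.0731).

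Relatives of mammalian Oct4 were among these. pou5f3.1.L measured 5.02 and 3.46 in injected and 3.49 and 2.40 in uninjected sides of double morphants, and 4.28 and 4.84 in injected and 3.62 and 3.57 in uninjected sides of control morphants. The values are low and overlap between the sides, and the mean difference was 1.13 (adjusted p = 0.048). A much brighter pou5f3.1.L probe set gave 0.52 and 0.93 in double morphants and 0.47 and 0.40 in control morphants, with a mean of 0.58. pou5f3.3.L rose by 1.60 ± 0.39 (adjusted p = 0.0754), with differences of 2.60 and 2.27 in double morphants and 0.31 and 1.23 in control morphants. In control replicate 1 it measured 3.02 in the injected and 2.71 in the uninjected side, near the bottom of the scale. pou5f3.2.L had differences of 1.99 and 2.93 in double morphants and 0.42 and 0.55 in control morphants and was not called. The mesendoderm T-box gene vegt.S rose by 1.07 (adjusted p = 0.0493). It measured 9.56 and 10.57 in injected and 8.35 and 9.14 in uninjected sides of double morphants, and 9.56 and 10.51 in injected and 8.41 and 10.03 in uninjected sides of control morphants. wnt8a.L (0.91), gdf1.S (0.88), mixer.L (0.87), ventx3.2.S (0.64) and dppa2.L (0.62) rose too, as did the oocyte kinase genes mos.L (0.43) and wee2.S (0.38) and the cyclin gene ccnb2.S (0.48). tdgf1.2.S, a close relative of tdgf1.3.L, fell by 0.67.

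Of 76 tested genes of the cell cycle and mitosis, 20 rose (26.3%), 2 fell and 54 were not called, with a median of 0.25 and pair medians of 0.23 and 0.53 in double morphants and 0.14 and 0.19 in control morphants. Of 59 genes of DNA replication and nucleotide synthesis, 1 rose, 13 fell (22%) and 45 were not called, with a median of -0.27 and pair medians of -0.35 and -0.42 in double morphants and -0.09 and -0.08 in control morphants. Both medians were smaller in size in control morphants. Neither this difference between kinds nor the difference between the lists was tested. Without the block 4 mitosis genes were called higher and 5 replication genes lower. Over all 8219 tested genes that fit called 45 higher and 49 lower. With the block 9.86% of all tested genes rose and 8.08% fell.

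The kinesin gene kif20b.S (1.21), the mitotic cyclins ccnb1.S (1.04), ccna2.S (0.86) and ccnb3.L (0.79), the centromeric histone gene cenpa.L (1.00), the mitotic kinase genes cdk1.S (0.71) and ttk.S (0.66) and cdc20.L, an activator of the anaphase-promoting complex (0.70), were among those that rose. cenpa.L measured 9.75 and 10.27 in injected and 8.67 and 8.63 in uninjected sides of double morphants, and 8.90 and 9.11 in injected and 8.43 and 8.30 in uninjected sides of control morphants. The sides did not overlap. The condensin genes ncapd2.S (-0.69) and smc2.L (-0.62) were the ones that fell.

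Of the replication genes, dnmt1.S, the maintenance DNA methyltransferase, fell most. It measured 7.10 and 7.41 in injected and 8.33 and 8.85 in uninjected sides of double morphants, and 7.37 and 7.34 in injected and 8.31 and 8.46 in uninjected sides of control morphants. The 4 injected arrays were close to each other and below every uninjected array, and the mean difference was -1.18 ± 0.12 (adjusted p = 0.0404). The helicase subunits mcm5.S (-1.12), mcm6.2.L (-1.05), mcm4.L (-0.92) and mcm6.L (-0.50), the primase subunit prim2.S (-0.90), the flap nuclease fen1.L (-0.75) and dnmt1.L (-0.44) fell as well. mcm3.L, another helicase subunit, rose by 0.75.

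The strongest decrease was that of atp12a.L, which encodes the catalytic subunit of a proton and potassium pump found in frog skin cells. It measured 5.32 and 6.36 in injected and 9.02 and 9.16 in uninjected sides of double morphants, and 5.34 and 4.43 in injected and 8.40 and 8.17 in uninjected sides of control morphants. The sides lay far apart in both kinds, and the mean difference was -3.33 ± 0.19 (adjusted p = 0.0318). aqp3.L, a water and glycerol channel, measured 5.15 and 3.94 in injected and 7.56 and 7.04 in uninjected sides of double morphants, and 5.06 and 3.66 in injected and 7.07 and 5.13 in uninjected sides of control morphants. It fell in every pair, by 2.25 ± 0.27 on average (adjusted p = 0.0428), with a narrow overlap between a double morphant injected array and a control uninjected array.

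Ionocytes are the scattered acid-secreting cells of the frog epidermis. Of 21 tested genes of ionocytes and ion pumps none rose, against 9.86% of all tested genes, and 17 were not called. The median was -0.09. The other 4 fell (19%), against 8.08% of all tested genes. Beside atp12a.L these were the carbonic anhydrase gene ca2.S (-1.22), the proton pump subunit atp6v0d2.L (-0.71) and the sodium pump subunit atp1b2.L (-0.69). ca2.S measured 5.43 and 4.88 in injected and 7.26 and 6.47 in uninjected sides of double morphants, and 3.49 and 2.51 in injected and 4.55 and 2.90 in uninjected sides of control morphants. Its level differed more between the kinds than between the sides, and both values of control replicate 2 were near the bottom of the scale.

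xa-1.L fell by 3.14 ± 0.48 (adjusted p = 0.048). It measured 5.77 and 3.94 in injected and 8.70 and 8.94 in uninjected sides of double morphants, and 6.57 and 4.57 in injected and 8.60 and 7.17 in uninjected sides of control morphants, with no overlap. XB5953580.L fell by 2.49 ± 0.20 (adjusted p = 0.0375), in the order of pairs by 3.02 and 2.77 in double morphants and 2.17 and 2.00 in control morphants. Further named decreases were MGC84752 (-2.48), the tolloid-like gene tll2l.L (-2.42), asb9.L (-2.31), the secreted metalloproteinase gene mmp28.L (-2.15) and genes of muscle and crest described below.

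Among the listed regional genes of the front of the neural plate, calls were only downwards. Of 24 tested genes of the eye field, forebrain and midbrain, 10 fell (41.7%), none rose and 14 were not called. The median was -0.65, with pair medians of -1.04 and -0.37 in double morphants and -0.60 and -0.61 in control morphants. Of these 24, 5 were called lower without the block, against 49 of all 8219 tested genes. With the block 8.08% of all tested genes were called lower and 9.86% higher. lhx5.S, a forebrain gene that is not on this list, rose. rax.L, which specifies the eye field, measured 5.81 and 6.75 in injected and 7.96 and 7.77 in uninjected sides of double morphants, and 6.61 and 6.28 in injected and 8.06 and 7.79 in uninjected sides of control morphants. Every injected array was below every uninjected one, and the mean difference was -1.53 (adjusted p = 0.0458).

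nkx2-1.L, a ventral forebrain and thyroid factor, measured 4.06 and 4.05 in injected and 6.97 and 6.70 in uninjected sides of double morphants, and 5.06 and 3.86 in injected and 6.01 and 5.78 in uninjected sides of control morphants. It fell by 2.11 (adjusted p = 0.0486) with no overlap. emx2.L, a gene of the dorsal forebrain, measured 6.23 and 5.06 in injected and 7.34 and 6.58 in uninjected sides of double morphants, and 5.87 and 4.10 in injected and 6.93 and 5.61 in uninjected sides of control morphants. The levels also differed between replicate numbers, so that the sides overlapped, but each pair fell and the mean difference was -1.30 (adjusted p = 0.0404). The midbrain genes en2.S (-1.90), en2.L (-1.59) and pax2.L (-0.72, with most other probe sets higher in control replicate 1), the forebrain genes foxd1.L (-1.77), lhx2.L (-1.20) and six3.L (-0.62), and the eye gene pax6.L (-0.49) fell too.

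The cement gland is a mucus-secreting organ at the very front of the embryo. All 6 tested genes of the cement gland and hatching gland were lower in all pairs, and 4 were called lower, against 17.9% and 8.08% of all tested genes. Without the block 2 were called lower, against 49 of all 8219 tested genes. In 1 of the 6 the sides did not overlap, against 3.86% of all tested genes on the lower side. The list's median was -1.40, with pair medians of -2.41 and -1.79 in double morphants and -0.76 and -0.61 in control morphants. The secretory gene agr2.L measured 9.38 and 10.02 in injected and 12.60 and 12.26 in uninjected sides of double morphants, and 11.37 and 10.45 in injected and 12 and 11.32 in uninjected sides of control morphants. Its decrease of 1.74 (adjusted p = 0.0815) came mostly from double morphants. ag1.S (-1.53), ag1.L (-0.48) and tfap2b.L (-0.88) fell too. The second copy agr2.S had a mean difference of -2.03 but was not called (adjusted p = 0.108).

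Calls among the general neural plate genes went both ways. Of 30 tested, 5 rose and 5 fell (16.7% each), against 9.86% and 8.08% of all tested genes, and the median was 0.05. gmnn.S and gmnn.L, which encode geminin, a regulator of replication licensing and neural fate, rose by 0.70 and 0.48, and zic1.S (0.70), irx2.L (0.66) and pax3.S (0.53) rose as well. dbx1.S (-1.20), ncam1.S (-0.79), zic5.S (-0.78), msi1.L (-0.58) and msi1.S (-0.44) fell.

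Of 16 tested genes of neuronal differentiation, 6 fell (37.5%) and 2 rose, against 8.08% and 9.86% of all tested genes. The median was -0.66, with pair medians of -0.40 and -0.69 in double morphants and -0.33 and -0.92 in control morphants. prph.S, which encodes the neuronal intermediate filament peripherin, measured 5.0 and 4.72 in injected and 6.38 and 7.33 in uninjected sides of double morphants, and 4.05 and 3.92 in injected and 5.15 and 5.80 in uninjected sides of control morphants. The sides did not overlap, and the decrease was 1.75 (adjusted p = 0.048). prph.L (-1.23), ebf2.S (-1.12), isl1.S (-1.04), the tubulin gene tubb2b.S (-0.97) and stmn1.S (-0.86) fell. The 2 that rose, neurog2.S (0.42) and prdm12.L (0.72), encode transcription factors of neural progenitors and sensory territory. The other neurog2.S probe sets gave means of 0.18 and 0.08, with control differences between -0.25 and 0.03, so the increase was not shared by all pairs in them.

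Calls in the neural crest list went both ways. Of 29 tested genes of neural crest and melanocytes, 5 fell (17.2%) and 3 rose (10.3%), and the median was -0.14. Over all tested genes 8.08% fell and 9.86% rose, so the share that rose was close to that of all genes. foxd3.L, an early crest specifier, measured 5.74 and 4.94 in injected and 7.47 and 8.2 in uninjected sides of double morphants, and 6.92 and 4.99 in injected and 7.49 and 7.22 in uninjected sides of control morphants. It fell by 1.95 (adjusted p = 0.066), and so did its copy foxd3.S (-1.34) and the crest factor gene sox8.L (-1.44). kit.L (1.17) and kit.S (0.84), which encode a receptor tyrosine kinase of melanocyte precursors, rose, as did the neural border gene msx1.L (0.54).

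sox10.L, another crest specifier, was called with a mean difference of -2.56 ± 0.65 (adjusted p = 0.0792). It measured 2.14 and 2.14 in injected and 6.05 and 5.56 in uninjected sides of double morphants, and 2.15 and 2.14 in injected and 5.07 and 2.15 in uninjected sides of control morphants. All injected arrays and the uninjected array of control replicate 2 lay at the lowest value of the table. Its decrease is therefore a lower bound in 3 pairs, and in the remaining pair no difference could be measured, so its membership rests there on values at the bottom of the scale. In all, 7 members had a group mean under 2.5, and 3 of these were called (sox10.L, en2.L and astl2e.2.L, the last chosen after its values were seen).

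Of 31 tested epidermal genes, 6 fell (19.4%) and 3 rose (9.68%), with a median of -0.20. Over all tested genes 8.08% fell and 9.86% rose, so the share of epidermal genes that rose was that of all genes. The transcription factor genes grhl1.L (1.18) and grhl3.L (0.84), which drive epidermal differentiation, and the cadherin gene cdh1.S (0.92) rose. The envelope proteins of surface cells ppl.L (-1.28) and evpl.L (-0.44), the lectin of secretory skin cells itln1.L (-1.03), otogl2.L (-0.60), the keratin gene krt12.4.S (-0.38) and cldn4.L (-0.45) fell. For cldn4.L the brightest probe set gave 0.18 instead, and for grhl1.L a brighter one gave 0.22 with -0.06 in control replicate 1.

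Of 18 tested genes of multiciliated cells, which move fluid over the embryo's skin, 4 rose (22.2%) and 1 fell. Of all tested genes 9.86% rose and 8.08% fell. The median of the list was 0.08. The 4 genes of the list that rose are known as early regulators: ccno.L (1.01) and ccno.S (0.81) for centriole amplification, mcidas.S (0.85) as a switch to the multiciliated fate and rfx2.S (0.82) as a ciliary transcription factor. mcidas.S measured 7.60 and 7.70 in injected and 6.83 and 6.98 in uninjected sides of double morphants, and 8.04 and 8.63 in injected and 7.33 and 7.45 in uninjected sides of control morphants. The sides did not overlap. spag6.L, a component of the ciliary axoneme, fell by 0.90, but a further probe set was higher in both control pairs (0.51 and 0.09).

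**Figure D4:**
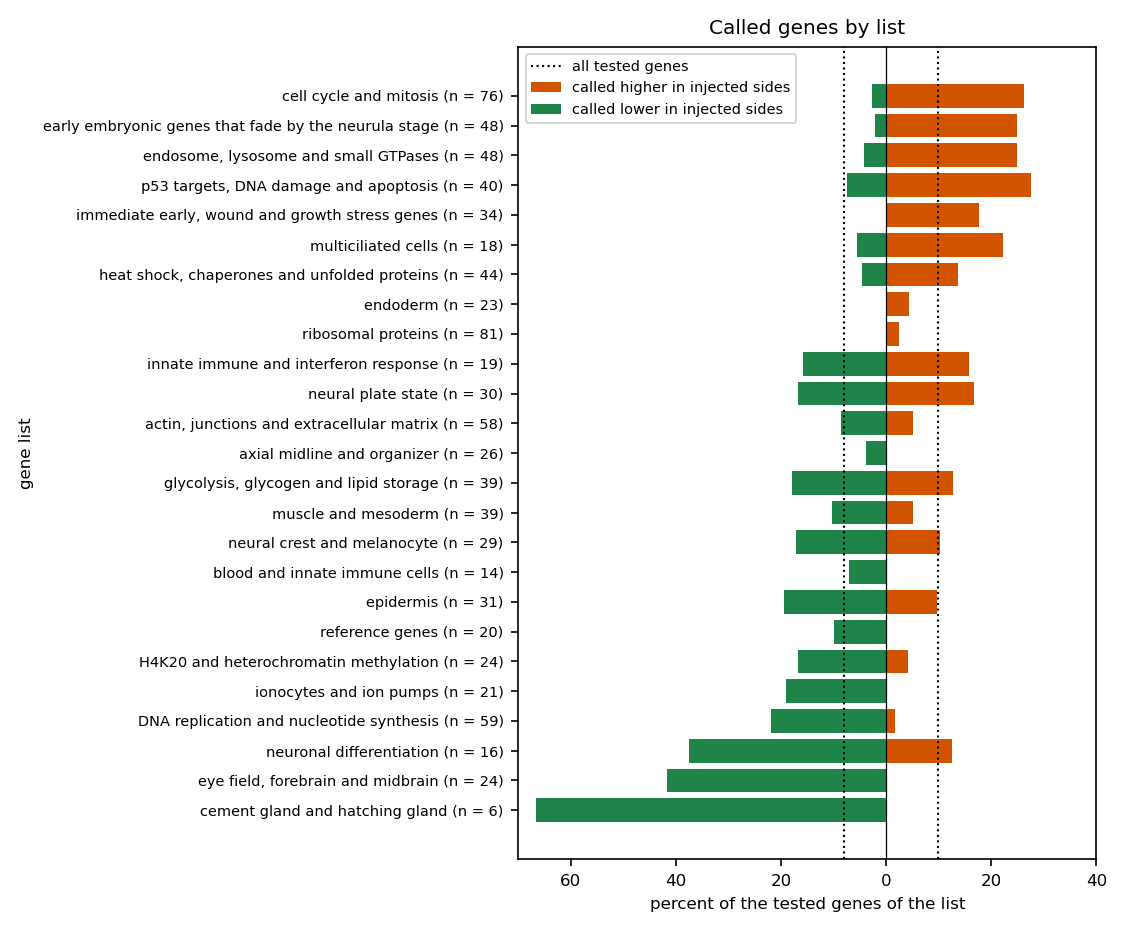
Percent of the tested genes of each list that were called higher or lower in injected sides, with vertical lines at the shares over all tested genes (9.86% higher and 8.08% lower). The lists were chosen with earlier results of these data known, so the bars are descriptive. The p53 list (27.5%), the mitosis list (26.3%) and the early embryonic and endosome lists (25% each) have the longest bars on the higher side, and the cement gland list (66.7% of 6 genes) and the forebrain list (41.7%) on the lower side.

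Some muscle and midline genes fell far more in replicate 2 than in replicate 1. Of 39 tested genes of muscle and mesoderm, 4 fell (10.3%) and 2 rose (5.13%), against 8.08% and 9.86% of all tested genes. The median was -0.05, with pair medians of -0.01 and -0.19 in double morphants and 0.14 and -0.46 in control morphants. Some of the lower genes described below were named for the size of their change and are not among the 4 of the list. tnni1.2.L, a troponin of skeletal muscle, measured 9.39 and 5.55 in injected and 10.33 and 9.72 in uninjected sides of double morphants, and 9.57 and 5.77 in injected and 10.14 and 8.97 in uninjected sides of control morphants. Both injected arrays of replicate 2 were far below the others. Its mean difference was -2.22 ± 0.64 (adjusted p = 0.0936), and that of flnc.L, a filamin of muscle, was -2.14 ± 0.62 (adjusted p = 0.0936).

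The myosin gene myh4.L had differences of -0.74 and -5.09 in double morphants and -0.41 and -4.95 in control morphants and was not called (adjusted p = 0.117). tnnc2.L, a troponin of fast muscle, fell by 2.2 ± 0.58 (adjusted p = 0.0823), with differences of -2.02 and -4.42 in double morphants and -0.75 and -1.61 in control morphants and an injected double morphant array of 2.14 at the bottom of the scale. tcf21.L (-1.69), tnni2.S (-1.57) and tbx1.L (-0.47) fell, and osr1.L (0.83) rose.

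Of 26 tested genes of the axial midline and organizer only the Wnt antagonist gene frzb.L (-0.81) was called, against 17.9% of all tested genes. The median was -0.37, with pair medians of 0.20 and -0.31 in double morphants and -0.26 and -0.74 in control morphants. shh.L, the signal of notochord and floor plate, had differences of -0.02 and -2.32 in double morphants and -0.29 and -6.64 in control morphants (adjusted p = 0.208). It was a member by sign alone, and its decrease was nearly confined to replicate 2 in both kinds. The part that the replicate number has in the other results of both lists was not tested.

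The remaining groups differed in how many calls they had and in their direction. Their counts stand against 9.86% of all tested genes called higher and 8.08% called lower. Of 48 genes of endosomes, lysosomes and small GTPases, 12 rose (25%) and 2 fell, with a median of 0.08. rilp.S, an effector of Rab7 in late endosome transport (1.88 ± 0.56, adjusted p = 0.0988), rasd1 (1.29), the lysosomal protease gene ctsd.S (0.74) and lamp1.L (0.70) rose, and the autophagy gene map1lc3b.S (-1.15) fell. The increase of rilp.S came mostly from double morphants (2.71 and 3.58), against 0.35 and 0.88 in control morphants. In control replicate 1 it measured 2.85 in the injected and 2.51 in the uninjected side, near the bottom of the scale. Of 34 immediate early, wound and growth stress genes, 6 rose (17.6%) and none fell, with a median of -0.01. These were rasd1, srf.L (0.92), klf2.S (0.81), ptgs2.S (0.76), ier2.S (0.71) and klf10.L (0.66), and another probe set of srf.L gave -0.08.

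Of 44 genes of heat shock, chaperones and unfolded proteins, 6 rose, 2 fell and the median was 0.00. herpud1.S (0.70) and xbp1.L (0.41), of the unfolded protein response, were among those that rose. Of 19 innate immune and interferon genes, 3 rose, led by ifi30.L (0.90), and 3 fell, led by the complement gene c3.L (-0.83), with a median of 0.12. Of 14 genes of blood and innate immune cells 1 fell, cxcr4.L (-0.48), and the median was -0.53. Of 23 endodermal genes 1 rose, mixer.L, and the median was 0.16.

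Of 58 genes of actin, junctions and extracellular matrix, 3 rose and 5 fell, with a median of -0.10, and ezr.L, which links actin to the membrane, fell most (-1.60). Of 39 genes of glycolysis, glycogen and lipid storage, 5 rose, 7 fell and the median was 0.03. The phosphofructokinase gene pfkp.L (-1.62) and the hexokinase gene hk1.L (-1.16) fell, while both copies of pkm, pyruvate kinase, rose (0.64 for pkm.S and 0.56 for pkm.L). Ribosomal protein genes had the smallest share of calls among the lists: of 81 tested, 2 rose and none fell, with a median of -0.05, and both of those that rose, rpl10a.S (1.04) and rps10.L (0.81), had a brightest probe set of the opposite sign (-0.39 and -0.23). Of 20 reference genes 2 fell, hprt1.L (-1.12) and ppia.L (-0.71), and the median was -0.09. A further ppia.L probe set gave a mean of -0.06, with 0.20 and 0.06 in double morphants and -0.38 and -0.12 in control morphants.

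Of 24 genes of H4K20 and heterochromatin methylation, 1 rose and 4 fell, with a median of -0.04. kmt5b.S, a copy of the gene for Suv4-20h1, was lower in all 4 injected sides, with differences of -0.21 and -0.42 in double morphants and -0.31 and -0.51 in control morphants (mean -0.36, adjusted p = 0.0883). kmt5b.L had a mean difference of -0.04 (adjusted p = 0.865). The morpholinos block translation, so the level of these transcripts does not measure depletion, and the control pairs fell at least as far for kmt5b.S. kmt5a.L, which encodes the H4K20 monomethyltransferase, rose by 0.83 (adjusted p = 0.0823).

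Both copies of a gene were tested in 1396 cases. Of the 363 copy pairs whose .L gene was higher in all 4 injected sides, the .S gene was so too in 162, which is 44.6% of the .L genes and 45.9% of the 353 such .S genes, while 25.3% of all tested genes were higher by this rule. In 26 cases the .S gene was instead lower in all 4. On the lower side 83 were shared, 40.3% of 206 .L genes and 34.6% of 240 .S genes, against 17.9% of all tested genes, and in 16 cases the .S gene was higher in all 4. The .L gene was called higher in 139 copy pairs and lower in 84. Of all tested genes 9.86% were called higher and 8.08% lower. Both copies were called higher in 51 cases, among them ccng1, sesn2, kit and ccno, and lower in 29, among them en2, foxd3, prph and mycn. mycn.L and mycn.S, which encode a growth-promoting transcription factor and were chosen after their values were seen, fell by 1.52 and 1.98. The copies were called in opposite directions in 7 cases: dus1l, eno1, mmgt1, nr1i2, prdx4, psmc3 and snx31, also named after their values were seen. The mean differences of the copies correlated at r = 0.61 across pairs, and probe sets of copies can hybridise with transcripts of both.

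**Figure D5:**
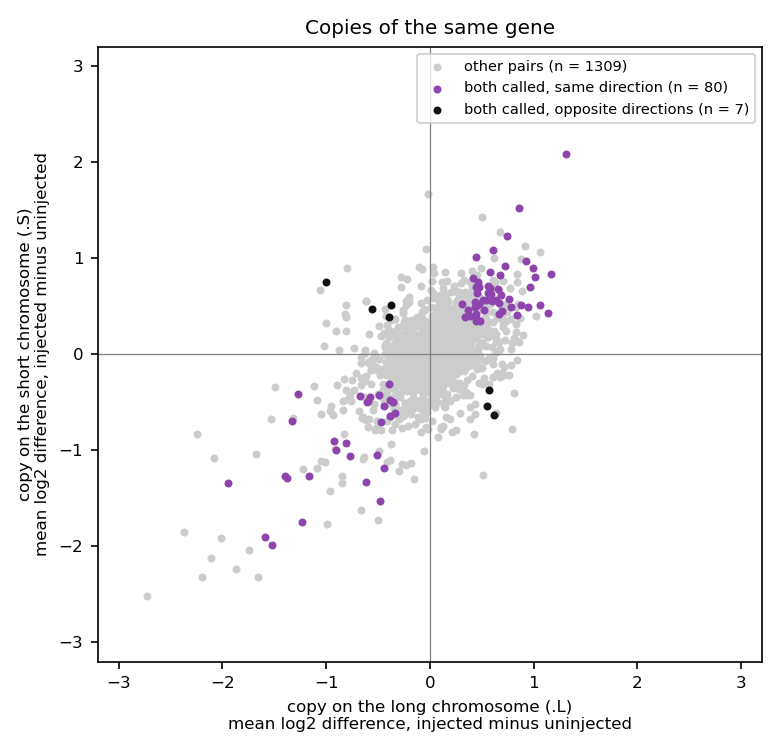
Mean log2 difference, injected minus uninjected, of the .L copy and of the .S copy of 1396 genes with both copies tested, with copy pairs coloured where both were called. Of these, 51 lie in the quadrant where both rose, 29 where both fell and 7 in the quadrants of opposite sign.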

How the data were processed

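RNA of injected and uninjected sides was hybridised to 8 Affymetrix arrays. The authors deposited log2 values made with GCRMA, which corrects background by probe sequence and normalizes between arrays, and its version is not given in the sources used here. Of 32635 probe sets, 15505 had a single gene, 279 several and 16851 none in the platform annotation. Genes were kept where a group averaged 4 or more on the log2 scale and the values varied, by their most variable probe set, which left 8219. Tests used limma 3.58.1 in R 4.3.3 with the matched pair as a block, over all 8 arrays, and were tested on simulated data. The simulated noise was independent for each array, so it cannot show how calls behave when pairs share an experiment. Pairs were set by the methods, since both sides came from the same embryos, and deviations of matched sides correlated at 0.65 in double morphants and 0.77 in control morphants. Deviations of double and control morphants with the same replicate number correlated as well (0.80 for injected and 0.69 for uninjected sides), so deviations also follow the experiment. p-values treat the 4 pairs as independent, although they come from 2 experiments, and measure only the spread between these pairs. Arrays carry no read depth, and their number limits the precision. Genes named were the 12 largest mean changes called in each direction, called genes of each list and up to 4 further same-sign members per list. Gene lists and members were chosen with earlier results of these data known. Alternatives covered the block, the prior, thresholds, probe set choice, filters, centring and leaving out each pair.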

Additional observations from a re-analysis of the deposited data

Results flagged for a closer look

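Of 197 genes checked, 3 had a single pair that stood apart from the other pairs. For independent values the cut-off used would flag about 1 in 20 genes by chance. All 197 were called genes, which were selected for pairs that agree, so this rate does not carry over to them. timm23.L differed by 2.54 in double morphant replicate 2, against 1.25 to 1.43 in the other pairs. mcidas.S differed by 1.18 in control replicate 2, against 0.71 to 0.77. wee2.S differed by 0.55 in double morphant replicate 1, against 0.30 to 0.34.

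Of 25 gene lists checked, 3 had a median difference of opposite signs in the kinds of morphant, in both replicates of each. Among single genes, 1183 of the 8219 tested had such opposite signs. How many lists would show this by chance was not worked out, and these differences between kinds were not tested. Genes of blood and innate immune cells had medians of -2.01 and -0.69 in double morphants and 0.15 and 0.20 in control morphants. Heat shock and chaperone genes had 0.09 and 0.14 in double morphants and -0.07 and -0.04 in control morphants, and ribosomal protein genes had -0.13 and -0.20 in double morphants and 0.09 and 0.02 in control morphants.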

How the results depend on the processing

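Calls depended on how the pairs were modelled, while same-sign counts depended on the size required. Against 810 higher and 664 lower calls, there were 45 and 49 with no replicate block, 1337 and 1015 with the experiment as the replicate block, and 1559 and 1110 with a separate effect per kind. An adjusted p under 0.05 left 79 and 110, a local false discovery rate under 0.2 left 5 and 21, and testing with no filter on low values left 419 and 321. Leaving out a pair gave 0 to 623 higher and 0 to 501 lower calls. Within replicate 1 alone there were 32 and 89 and within replicate 2 alone 124 and 309, an alternative chosen after seeing the data, and these also gave 2894 and 2296, and 3210 and 2402, same-sign genes. Same-sign counts, 2082 higher and 1472 lower, became 1281 and 935 when every difference had to reach 0.1, 532 and 499 at 0.25, and 107 and 171 at 0.5, and lay between 2351 and 2691 and between 1684 and 1951 when a pair was left out. The trended prior, brightest probe set, centring and stricter filters kept both counts within 1.5 times. The brightest probe set turned the sign of timm23.L (-0.15), cldn4.L (0.18), dnaja1.L (-0.049), rps10.L (-0.23) and rpl10a.S (-0.39). No other of the 197 genes checked changed sign. sesn1.L, atp12a.L and XB5953580.L stayed called in 16 of 17 alternatives, none of which used the further sesn1.L probe set (0.51). Every other named gene stayed called in fewer, down to 7 of 17 for rilp.S. Of the 197 genes checked, 172 lost the call without the block and 190 under the local false discovery rate. The cause of these shifts was not tested. Each fit without a pair has fewer degrees of freedom, and the part of this in its counts was not tested either.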
